A study of Mus musculus with 287 samples.

Results

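The p53 pathway was followed through 9 genes, taken by their symbols from the 55359 genes of an exon count table of single cells from mouse cerebral organoids. The genes were Trp53, its regulators Mdm2 and Mdm4, and its targets Cdkn1a, Ccng1, Bax, Bbc3, Phlda3 and Sesn2, and all 9 were found. Cells in which 1000 or more genes had an exon count entered the work, which left 90 cells on plate 1, 80 on plate 2 and 77 on plate 3, or 86.97% of those with a clone label. The organoids were grown from mouse embryonic stem cells of genotype MADM-11GT/TG;Emx1-CreER+/-, in which a tamoxifen-inducible Cre is driven from the Emx1 locus. MADM (mosaic analysis with double markers) exchanges arms of a chromosome pair in a mitotic progenitor, so that its daughters can turn green or red. All groups shared this genotype and received 60 nM 4-hydroxytamoxifen on day 13, and all cells were collected on day 20 by drawing single fluorescent cells into a glass pipette. The labels place 53.0% of these cells in clones of type SN and 47.0% in clones of type N, whose meaning is not stated, and call 61.9% of the cells green and 38.1% red. In all 46 SN and 22 N clones were labelled. The clone sizes given in the labels were 2 to 6 cells for SN and 4 to 19 for N, and the number of cells sequenced from a clone could differ from its label. No organoid, culture or animal is named for a clone, so p-values here measure the spread between clones only. Where groups are compared within clones, this is the spread of their difference over clones.

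The p53 protein, encoded by Trp53, is a transcription factor that is kept low by the ubiquitin ligase Mdm2 and its partner Mdm4 and accumulates when DNA is damaged or cells are stressed. It then switches on genes that stop the cell cycle, repair DNA, restrain growth signalling or start apoptosis, and Mdm2 is itself a target, which closes a feedback loop. In the developing cortex, p53 activity is known to remove or arrest progenitors with damaged DNA or delayed mitosis. Much of p53 control acts on protein stability, which RNA counts do not show.

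The sequences below show where the p53 recognition decamer, the unit that occurs as a pair in a p53 binding site, was found within 250 bases before the annotated starts of the genes. Each sequence is read 5′ to 3′ on the gene's strand, from RefSeq with build GRCm38.p6, and capitals mark the decamer.
Trp53, chr11:69580269-69580308, plus strand: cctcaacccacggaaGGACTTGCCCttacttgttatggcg
Cdkn1a, chr17:29090891-29090952, plus strand: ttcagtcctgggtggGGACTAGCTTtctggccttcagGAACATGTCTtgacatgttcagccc
Mdm2, chr10:117710920-117710959, minus strand: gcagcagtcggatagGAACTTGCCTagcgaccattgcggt
Bax, chr7:45467075-45467114, minus strand: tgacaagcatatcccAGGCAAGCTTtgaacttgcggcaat
Ccng1, chr11:40755447-40755486, minus strand: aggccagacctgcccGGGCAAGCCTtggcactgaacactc
The decamer is its own reverse complement, so one search covered both strands. It was present in 5 of the 13 promoters listed for the 9 genes, those of Trp53, Cdkn1a, Mdm2, Bax and Ccng1. Of the 32851 promoters listed, 7.13% held it, and of all 27025 genes 8.20% had at least 1 such promoter. Cdkn1a was the member with a pair of decamers at most 13 bases apart, an arrangement found in 21 promoters, or 0.0639% of all. No match says only that these letters are not in this window, and a match does not show binding. Trp53 and Ccng1 lie on chromosome 11.

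The kept cells held 6171 to 13040432 exon counts each, with a median of 1517430. The number of these genes seen in a cell went with its depth. The median number of the 9 with an exon count was 2 in the shallowest 62 cells and 8 in the deepest 62. Over all kept cells the median was 4, with none of the 9 counted in 12 cells and all 9 in 26. Cells carried neuronal and progenitor RNA side by side, though not all markers to the same extent. The 10 neuronal markers were each counted in 69.2% (Tbr1) to 98.8% (Mapt) of cells, and the 12 radial glial markers in 21.9% (Hes1) to 95.5% (Fabp7). Shares are given with their 95% interval by Wilson's method, which holds counting error alone. In what follows CPM is exon counts per 1000000 exon counts of the cell or, in tests, of the TMM-scaled total of a clone.

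Trp53 itself was counted in 49.8% of the kept cells (43.6 to 56.0%), at a median of 29.1 CPM in the cells that had a count. Mdm2, the ligase that marks p53 for degradation, was counted in 50.6% of cells at a median of 31.7 CPM, and Mdm4, which binds and inhibits p53, in 63.6% at 50.8 CPM. Among cells with at least 1000000 exon counts these shares were 63.3% for Trp53, 67.7% for Mdm2 and 78.5% for Mdm4. The regulators were thus each seen in a majority of the deeper cells.

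Both arrest genes were also common. Cdkn1a, which encodes the CDK inhibitor p21, was counted in 62.3% of cells (56.2 to 68.2%), with a median of 89.1 CPM in those cells. Ccng1 (cyclin G1, which recruits a phosphatase to Mdm2) was counted in 53.4% of cells at a median of 38.4 CPM. For Cdkn1a the mean over all cells differed between plates, at 78.4 CPM on plate 1, 159.2 CPM on plate 2 and 47.9 CPM on plate 3.

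Of the cell death genes Bax was by far the most often seen. Bax, the BCL2-family protein that opens the outer mitochondrial membrane, was counted in 68.0% of cells (62.0 to 73.5%), at a median of 109.1 CPM, and in 84.8% of the cells with at least 1000000 counts. Its mean was 117.4, 139.7 and 52.8 CPM on plates 1, 2 and 3, so it was lowest on the plate where Cdkn1a was lowest. Bbc3, which encodes the BH3-only protein PUMA, was counted in 45.7% of cells at a median of 9.58 CPM. Phlda3, an inhibitor of Akt signalling, was the least often counted member, in 60 cells or 24.3%, at a median of 24.1 CPM. Sesn2 (sestrin 2, which restrains mTORC1) was counted in 40.1% of cells at a median of 42.8 CPM, with 28.9% of cells on plate 1, 51.2% on plate 2 and 41.6% on plate 3.

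**Figure D1:**
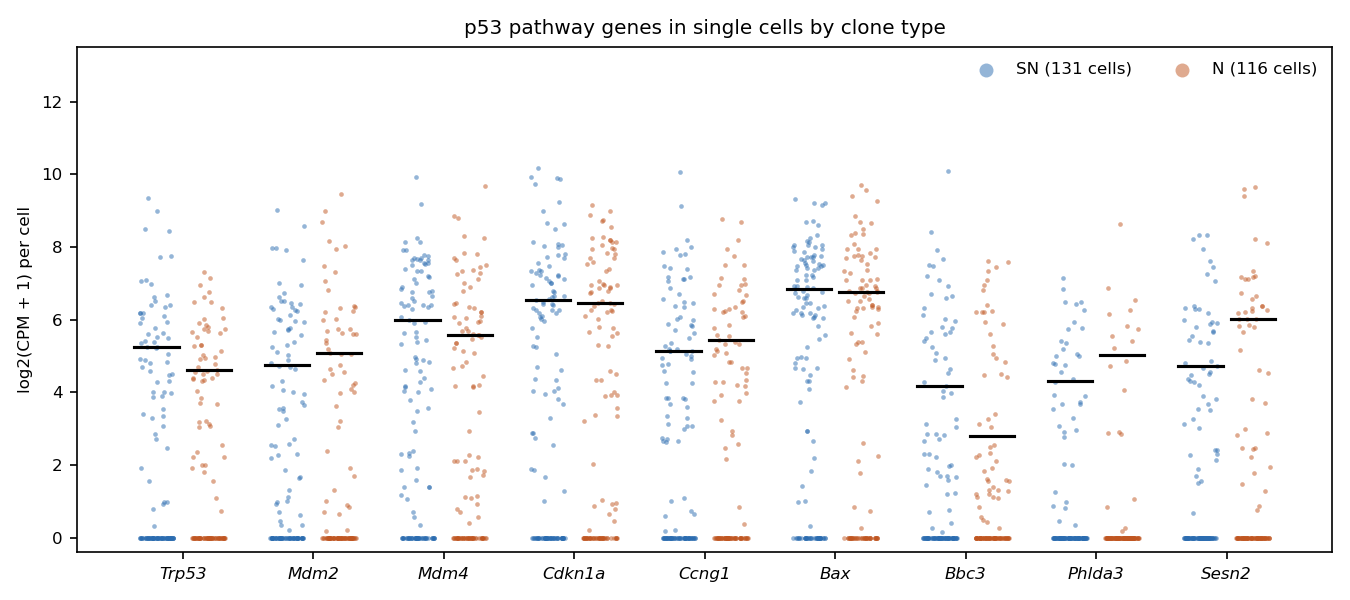
Level of each gene in every kept cell, as log2(CPM + 1), for the kept cells of SN clones and of N clones. Each dot is a cell, points at 0 are cells without an exon count, and black lines are medians over the cells with a count. Over both types together these run from 9.58 CPM for Bbc3 to 109.1 CPM for Bax, without correction for gene length.

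The CPM values of single cells carry no correction for gene length. Levels of different genes were therefore ranked per length of exon, in sums over the kept cells of each of 62 clones with at least 2 such cells. Per kilobase of exon, Bax stood first with a median of 65.6 CPM, followed by Cdkn1a at 17.8, Sesn2 at 9.52 and Ccng1 at 7.91. Trp53 followed at 5.49, Bbc3 at 4.99, Mdm2 at 4.43, Mdm4 at 4.11 and Phlda3 at 2.18 CPM per kilobase. The interquartile ranges over clones of all neighbours in this order overlapped, those of Bax (37.8 to 103.4) and Cdkn1a (10.1 to 39.1) only barely. Exon lengths came from the GENCODE M21 annotation, in which Mdm4 has by far the most annotated exon sequence, at 14798 bases, and its level per length depends on that length. Where the counting did not use strand, reads of the processed pseudogene Gm29257, which overlaps Mdm4 on the opposite strand and was counted in 59.9% of cells, could not be told apart from those of Mdm4. The pseudogenes Trp53-ps and Mdm4-ps were each counted in 23 cells and could share reads with their parents.

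A few cells held much of the RNA of each gene. The 25 cells with the highest Phlda3 held 84.8% of the Phlda3 CPM summed over all cells, and the same number held 77.2% for Bbc3, 73.7% for Sesn2 and 43.0% for Bax, the most even member. These high cells were spread over 18 to 24 clones for every member. For Cdkn1a, 15 of the 25 highest cells lay on plate 2 and 3 on plate 3, and for Bax 13 and 2.

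Intron counts, which unspliced RNA contributes, made up very different shares of the members' counts, beside 30.3% of all counts over all genes. Introns took 54.9% of all counts of Mdm4 and 36.9% of those of Mdm2, against 20.7% for Bbc3, 12.6% for Sesn2 and 9.18% for Trp53. The share was 5.58% for Cdkn1a, 3.09% for Ccng1, 2.56% for Bax and 2.14% for Phlda3. Mdm4 had intron counts in 79.8% of cells, 52 of which had no exon count of it. Exon counts of Mdm2 were found in 71.6% (62.8 to 78.97%) of the cells with an intron count of Mdm2 and in 32.1% (24.7 to 40.5%) of the others. The former cells were also deeper, with a median of 3863680 against 777983 exon counts, and the part of depth in this difference was not tested. Intron length also differs between the genes and was not corrected for.

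All 9 genes rose together from cell to cell, at a median correlation close to that among the genes counted most widely. The Pearson correlation of log2(CPM + 1) over the kept cells was above 0 in 36 of 36 pairs of members, with a median of 0.220 and a range from 0.0822 to 0.378. Over all pairs of the 4258 genes counted in at least 50% of the kept cells the median was 0.213, and 95.95% of pairs were above 0. Of the 9 members 5 were in that set, and the others were counted in fewer cells than any gene of it. Cells share their depth across genes: each member correlated with the number of detected genes, from 0.297 for Phlda3 to 0.531 for Mdm2. Summed per clone, 26 of 36 pairs were above 0 with a median of 0.147, beside a median of 0.140 over all gene pairs. These correlations describe the libraries and carry no test.

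Cdkn1a and Bax were the pair that varied together most over all kept cells and over clone sums, but not over cells within any plate. Over cells their correlation was 0.378 (Spearman 0.369), and Bax was counted in 82.5% of the cells with Cdkn1a and in 44.1% of those without. Within plates it was 0.417, 0.398 and 0.209 for plates 1, 2 and 3. The highest pairs there were Mdm2 and Sesn2 (0.470), Trp53 and Ccng1 (0.415), and Mdm4 and Bax (0.503). Over cells with at least 1000000 exon counts Cdkn1a and Bax had 0.272, where Bbc3 and Sesn2 reached 0.335. For Cdkn1a and Bax it was 0.298 over the 91.1% of cells that could be thinned to 100000 exon counts. Over the 62 clone sums it was 0.601 (Spearman 0.606). Within plates, without clone 45, which had cells on 2 plates, it was 0.698 over 20 clones, 0.527 over 21 and 0.459 over 20, and without the 2 clones farthest from the Cdkn1a median it was 0.529 over all plates. Over cells, Trp53 came closest to Ccng1 (0.324) and Bax (0.311). Bbc3 and Ccng1 were the least alike, at 0.0822 over cells and −0.30 over clone sums.

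**Figure D2:**
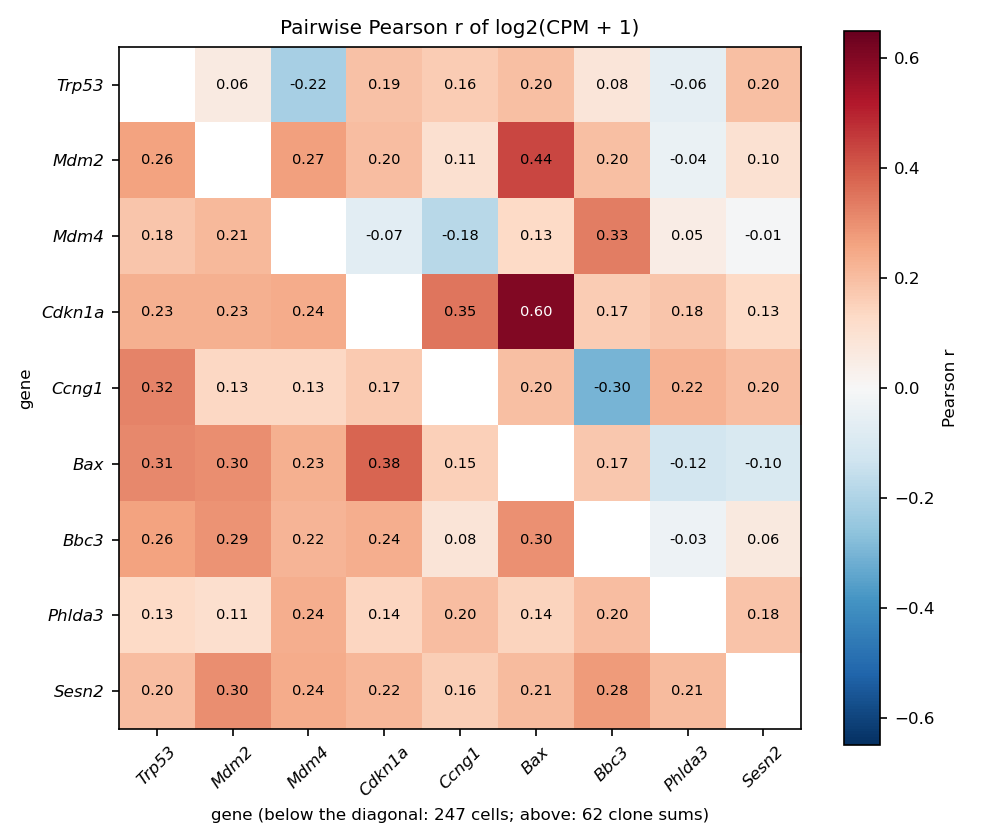
Pearson correlation of log2(CPM + 1) for the 36 pairs of genes, over the kept cells below the diagonal and over 62 clone sums above it. Cdkn1a and Bax have the darkest cell in each triangle, 0.378 over cells and 0.601 over clone sums, and every value below the diagonal is positive.

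Beyond the 9 genes, the patterns most like those of Cdkn1a and Ccng1 over the 62 clone sums were looked for among the genes counted in at least 50% of cells. For Cdkn1a the 5 closest were Gm13436 (0.631), Rps3a3 (0.623), H2afv (0.622), Higd1a (0.612) and Dtymk (0.610). For Ccng1 they were Nedd4 (0.483), Plagl1 (0.479), Cyb5r3 (0.475), Eif4h (0.472) and Hdac1 (0.429). For the mean z-score of the 9 members they were Peg10 (0.655), Msl2 (0.644), Clk1 (0.644), Fnbp4 (0.642) and Ckap4 (0.608). The clone sums share libraries and depth across genes.

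Cells of 1 clone resembled each other weakly in these genes. The intraclass correlation over the cells of the 62 clones, the share of the variance of log2(CPM + 1) that lies between clones, was 0.135 for Bax, 0.124 for Trp53, 0.122 for Cdkn1a and 0.0802 for Bbc3. It was 0.0484 for Ccng1, 0.0126 for Phlda3, 0.0051 for Sesn2, 0.0031 for Mdm4 and −0.038 for Mdm2. The median over genes counted in at least 50% of cells was 0.0434 with a 25th percentile of 0.0014 and a 95th percentile of 0.208. No member lay above the 95th percentile, and Mdm2 lay below the 25th. With plate means taken out, Bax (0.121) and Trp53 (0.122) kept their values and Cdkn1a had 0.0618. Every cell of a clone had a Bax count in 22 of the 62 clones and none had one in 4, while the other 36 clones were mixed.

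SN and N clones did not differ in any of the 9 genes by more than the spread between clones. The comparison used exon counts summed per clone for 42 SN clones and 20 N clones, with a mean of 3.02 and 5.70 kept cells per clone and with plate as a term. Of 11914 genes tested none passed at an adjusted p under 0.05 with edgeR's quasi-likelihood test, a percentage called of 0 in either direction. At an unadjusted p under 0.05, 39 genes were higher in SN (0.327%) and 1.74% of genes in N, and none of the members was among them. Limma-voom called 1 gene higher in SN and 1.44% of genes in N, and DESeq2 called 2 in N, again with no member. The members were split 4 above to 5 below 0, where 40.2% of all genes tested lay above. The median difference of the members was −0.09 on the log2 scale beside −0.11 for all genes tested.

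Trp53 ranged from 0 to 170 CPM in SN clones with a median of 15.4, and from 0 to 62.9 CPM in N clones with a median of 25.6. The highest values were in SN clones, but most clones of both types lay in the same range. Its log2 difference, SN minus N, was −0.09 ± 0.68 (SE; adjusted p = 1 with edgeR). Mdm2 had a median of 17.2 CPM in SN clones (0 to 152.7) and 26.0 CPM in N clones (0 to 208.6), with a log2 difference of −0.32 ± 0.56. Mdm4 had medians of 69.2 and 55.2 CPM and a difference of 0.26 ± 0.44.

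Cdkn1a had nearly equal medians, 69.1 CPM in SN clones (0 to 1139.8) and 68.1 CPM in N clones (0 to 480.3). The few highest clones were SN, and the groups overlapped throughout the rest of the range. Its log2 difference was 0.44 ± 0.52 (adjusted p = 1 with edgeR). For Ccng1 the medians were 24.6 and 30.1 CPM and the difference 0.20 ± 0.57.

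Bax had a median of 96.5 CPM in SN clones (0 to 499) and of 111.7 CPM in N clones (7.19 to 699). The 4 clones without a Bax count were all SN, whose sums held fewer cells. Its log2 difference was −0.29 ± 0.41. Bbc3 differed by −0.17 ± 0.72 and Phlda3 by 0.28 ± 0.98. Sesn2 showed the widest gap of medians in CPM, 17.5 CPM in SN clones (0 to 262.2) against 49.8 CPM in N clones (0.313 to 240.7), with a difference of −0.54 ± 0.64. Adjusted p was 1 for every member with edgeR. Depth differed between the types, with median clone totals of 5474930 counts in SN and 16199500 in N. Of all genes tested 40.2% lay above 0, with a median of −0.11. The radial glial markers lay above 0 in 12 of 12 genes tested (median 0.53) and the neuronal markers in 1 of 10 (median −0.16), none past the threshold. The part of these markers in the members' values was not tested.

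**Figure D3:**
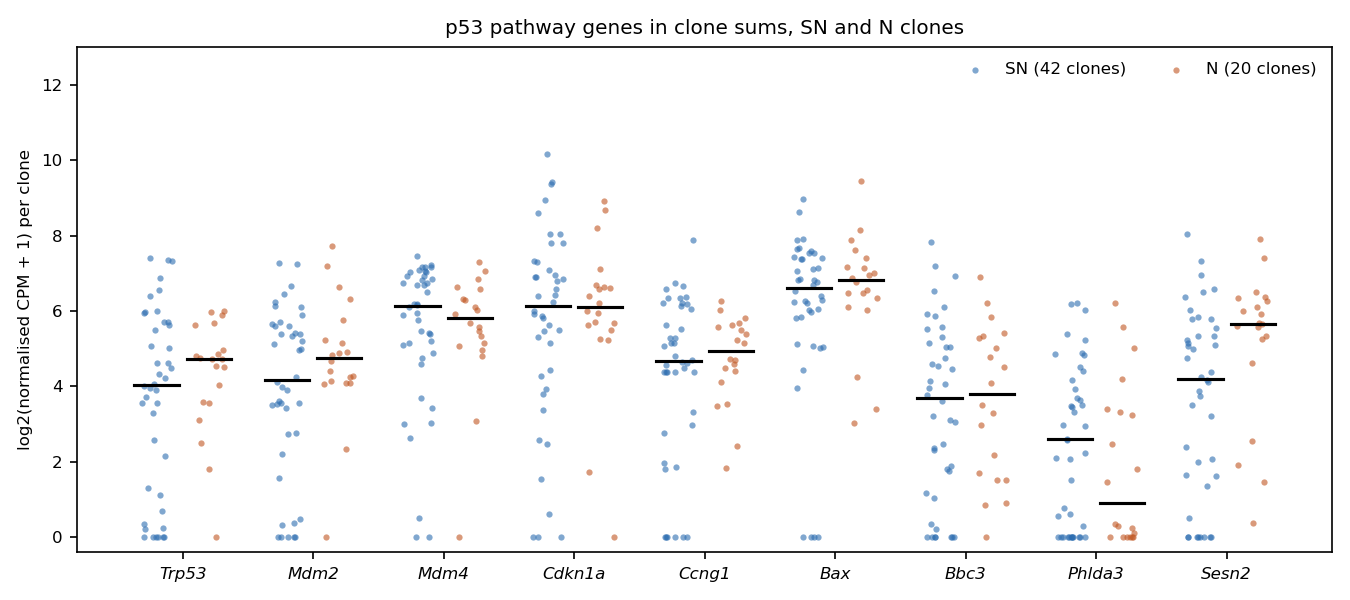
Level of each gene in the sums of 42 SN clones and 20 N clones, as log2(normalised CPM + 1). Dots are clones and black lines medians; the types overlap for every gene, with medians of 17.5 CPM for SN and 49.8 CPM for N in Sesn2 and of 5.07 and 1.03 CPM in Phlda3.

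Between green and red cells of the same clone no member tested was called either. Standard errors ran from 0.65 for Bax to 1.52 for Mdm4 on the log2 scale, so differences of that size could not be told from 0. In MADM the colours mark the sister lineages left by 1 recombination event, and no mutation is linked to a colour in the labelled genotype. In the 45 clones with cells of both colours (31 SN, 14 N), sums per clone and colour were compared with the clone as a block. Of 7437 genes tested none passed with edgeR, a percentage called of 0 in each direction, while 94 genes were higher in green (1.26%) and 24 in red (0.323%) at an unadjusted p under 0.05. The median log2 difference, green minus red, was 0.18 over all genes tested and 0.03 over the 8 members tested. Phlda3 was left out by the filter on low counts.

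Sesn2 had the largest estimate of the members tested, with a median of 8.87 CPM in green (0 to 1384.5) and 0 CPM in red (0 to 294). It was higher in green in 24 clones, higher in red in 14 and equal in 7. Its log2 difference was 2.18 ± 1.50 (unadjusted p = 0.151, adjusted p = 1 with edgeR). Cdkn1a was higher in green in 24 clones and in red in 19, with medians of 77.6 and 40.8 CPM and a difference of 0.86 ± 0.89. Bbc3 was higher in red in 24 clones and in green in 14, with a difference of −0.77 ± 1.01. Neither of these separated the colours beyond the spread of the green to red difference over clones.

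The other members tested had smaller estimates. Trp53, on chromosome 11, differed by 0.27 ± 1.02, with 19 clones higher in green and 20 in red. Ccng1, also on chromosome 11, differed by 0.01 ± 0.93, with 22 and 20 clones. The differences were −0.23 ± 1.07 for Mdm2, 0.02 ± 1.52 for Mdm4 and 0.05 ± 0.65 for Bax. Phlda3, fitted without the filter on low counts, differed by 1.04 ± 1.31, beside a median of 0.125 over all genes in that fit. The effect of colour was also compared between clone types by an interaction term: none of 7437 genes passed, 3.58% had an unadjusted p under 0.05, and none of the 8 members was among them.

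The third comparison concerned cycling state. Cells were scored by the mean log2(CPM + 1) of 30 cell cycle genes, and on each plate the 25% of cells with the highest score were called cycling-high. This made 62 cycling-high cells (36 SN, 26 N) and left 74.9% of all cells cycling-low, a division of a continuous range with 51 cells within 0.5 of its limit. The classes differed in depth: the median cell had 4099920 exon counts and 10468 detected genes if cycling-high, and 1231380 counts and 4262 genes if cycling-low. In 32 clones with cells of both classes (47 cycling-high and 87 cycling-low cells), sums were compared within clones. Of 7687 genes outside the score, 407 were called higher in cycling-high sums (5.29%) and 2 in cycling-low sums (0.026%) with edgeR. At an unadjusted p under 0.05 the counts were 2218 (28.9%) and 26 (0.338%). The whole distribution was shifted, with 92.3% of the log2 differences above 0 and a median of 1.69, and the members are read against that shift. Cell type markers are read against it as well. Of the radial glial markers 11 of 11 tested lay above 0, but their median of 1.25 lay below that of all genes. Pax6 was called (4.45 ± 1.23, adjusted p = 0.0302 with edgeR). The radial glial markers had summed median levels of 3294.3 CPM in cycling-high and 2636.8 CPM in cycling-low sums. The 3 intermediate progenitor markers tested had a median of 2.69, above that of all genes, none called, with summed median levels of 119.4 and 8.66 CPM. One of them, Btg2, is also a p53 target followed below. The neuronal markers lay above 0 in 7 of 10 genes (median 0.37, below that of all genes), with summed median levels of 6107.9 and 6860.1 CPM. The part of these markers in the members' values was not tested.

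The fitted log2 differences of the 8 members tested were all positive, their median was 1.98 beside 1.69 for all genes, and 1 of the 8 was called. That gene was Sesn2, which had a median of 39.3 CPM in cycling-high sums (0 to 184.5) and 0 CPM in cycling-low sums (0 to 266.3). It was higher in cycling-high cells in 21 clones, lower in 6 and equal in 5, so that the groups overlapped in range while most clones moved up. Its log2 difference was 5.73 ± 1.56 (adjusted p = 0.0281 with edgeR). The mean over clones differed far less, at 46.1 against 30.3 CPM, and the highest single value was in a cycling-low sum. The call did not hold without the clone block (1.70 ± 1.10, adjusted p = 0.998), with limma-voom (2.52 ± 0.85, adjusted p = 0.0560), with intron counts added (5.22 ± 1.48, adjusted p = 0.0607) or on plates 2 and 3 alone. It held among cells with at least 1000000 exon counts (5.26 ± 1.82, adjusted p = 0.0490 with edgeR, 24 clones), where the median of all genes was 2.39. With each cell weighing equally all 8 members passed, as did 6903 of the 7687 genes.

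Phlda3 did not pass the filter on low counts. Its median was 5.86 CPM in cycling-high and 0 CPM in cycling-low sums, and it was higher in cycling-high cells in 24 clones and lower in 4. Without the filter its log2 difference was 5.19 ± 1.54 (unadjusted p = 0.000728, adjusted p = 0.0592 with edgeR). In that fit the median of all genes was 0.596, and 0.83% of the genes outside the score were called higher in cycling-high. Per cell it was counted in 61.3% of cycling-high and 11.9% of cycling-low cells. At 1 fixed depth of 100000 counts, which 62 cycling-high cells and 88.1% of the cycling-low cells reached, the shares were 46.8% (34.9 to 59.0%) and 8.59% (5.19 to 13.9%). For Sesn2 at that depth they were 64.5% (52.1 to 75.3%) and 22.1% (16.4 to 29.1%), and for Cdkn1a 79.03% (67.4 to 87.3%) and 47.9% (40.3 to 55.5%). All 9 members were counted more often in the cycling-high cells, which at the same depth also had more detected genes, a median of 6820.5 against 3211. The share of all genes counted more often in these cells was not computed, so this count does not set the members apart. The part of this wider detection in the members' values was not tested.

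Among the regulators, Mdm2 had a median of 26.4 CPM in cycling-high sums (0 to 376) and 1.84 CPM in cycling-low sums (0 to 157.2), and was higher in the former in 22 of 32 clones. Its log2 difference of 3.27 ± 1.28 did not pass (adjusted p = 0.0960 with edgeR). Mdm4 differed by 2.36 ± 1.01 (adjusted p = 0.117 with edgeR), also with 22 clones higher. Both calls depended on the setting. Mdm2 passed with limma-voom (2.60 ± 0.67, adjusted p = 0.0190) and, with edgeR, with cells of at least 500 genes (adjusted p = 0.0409) and with the top 33.3% (adjusted p = 0.0246) or 50% (adjusted p = 0.0334) of the score called cycling-high. Mdm4 passed in these 3 edgeR settings (adjusted p = 0.0416, 0.0140 and 0.00567). The shift of all genes was larger in them as well, at 1.92, 2.34 and 2.80. Of the genes outside the score 17.0%, 41.6% and 68.6% were called higher in cycling-high there, and 6.54% with limma-voom. Trp53 had the smallest difference of the members, 0.55 ± 1.21, with 16 clones higher and 14 lower, and so lay below the median of all genes.

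The p21 gene Cdkn1a had a median of 80.5 CPM in cycling-high sums (0 to 847) and 28.2 CPM in cycling-low sums (0 to 640). It was higher in cycling-high cells in 22 clones and lower in 10, and its log2 difference of 1.66 ± 0.93 equalled the shift of all genes (adjusted p = 0.211 with edgeR). Ccng1 (1.01 ± 0.90) and Bax (0.83 ± 0.77) lay below that shift, and Bbc3 (2.30 ± 1.27) above it, none past the threshold. With the top 33.3% of the score Cdkn1a (1.89, adjusted p = 0.0441 with edgeR) and Bbc3 (3.14, adjusted p = 0.0345 with edgeR) were called, as was Cdkn1a with the top 50% (1.93, adjusted p = 0.0478 with edgeR). In these 2 fits 41.6% and 68.6% of genes outside the score were called higher in cycling-high. The median of all genes was 2.34 and 2.80, above the values of Cdkn1a. For Trp53 and Bbc3 the mean CPM over clones was lower in cycling-high sums (43.5 against 59.7 and 21.9 against 24.5 CPM), opposite in sign to the fitted differences. For no member tested was a difference in the effect of cycling state between clone types called. Of 7710 genes 0 were called for the interaction, with 1.97% at an unadjusted p under 0.05, none of them a member. The size nearest to that was Sesn2 at 4.61 ± 2.44 higher in SN (unadjusted p = 0.0648).

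**Figure D4:**
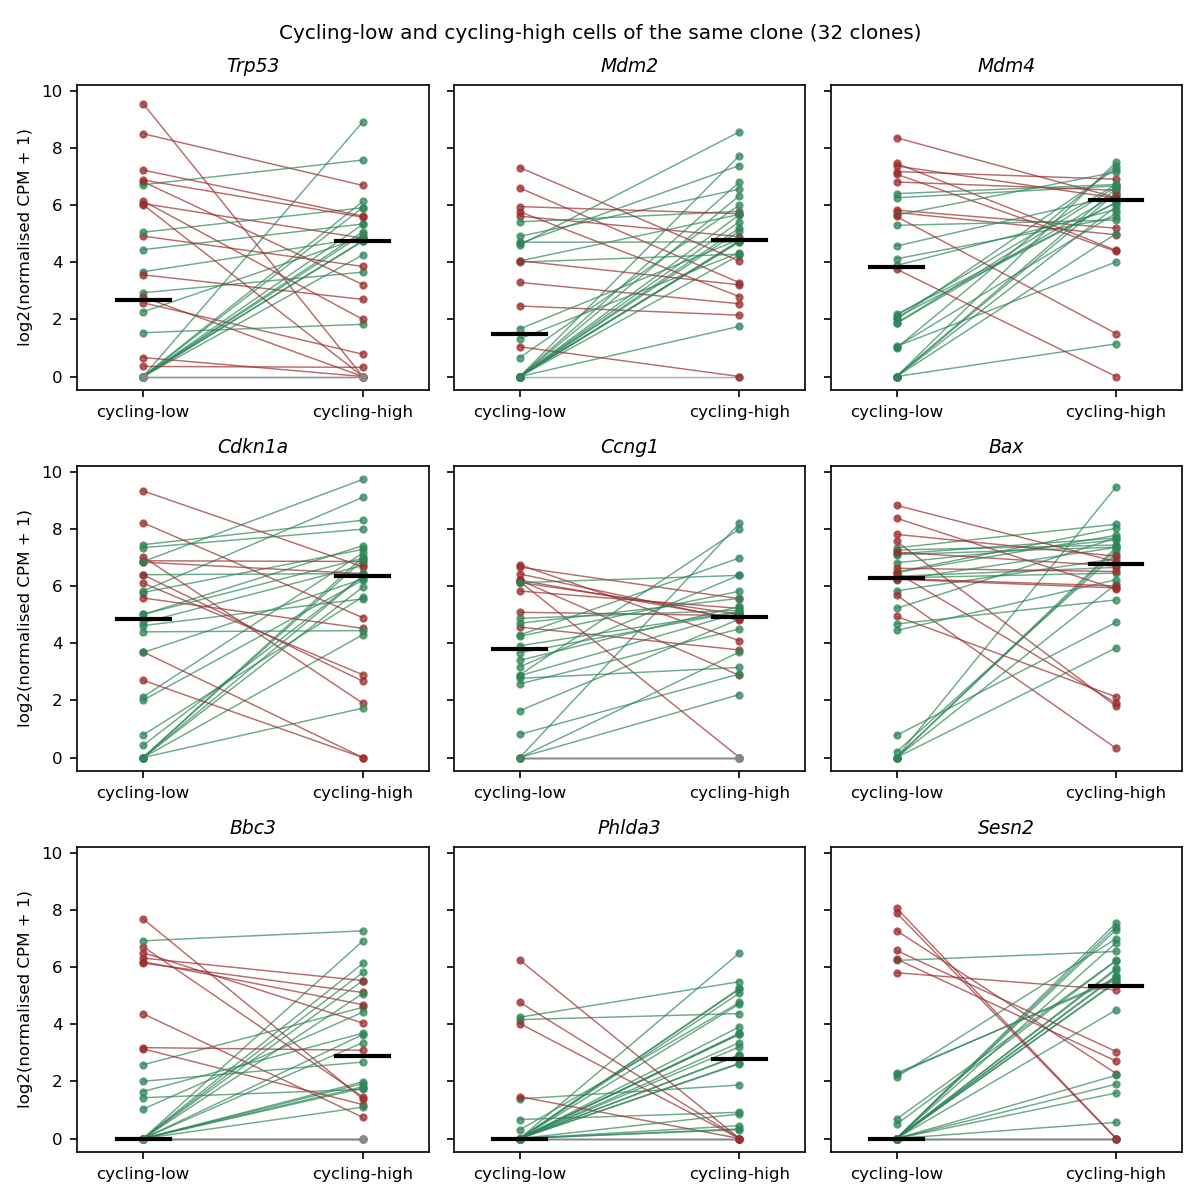
Level of each gene in the cycling-low and cycling-high cells of the same clone, as log2(normalised CPM + 1), for 32 clones. Each line is a clone, green where the cycling-high sum was higher, red where it was lower and grey where both were equal, and black bars are medians; for Sesn2 the line rises in 21 clones and falls in 6.

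**Figure D5:**
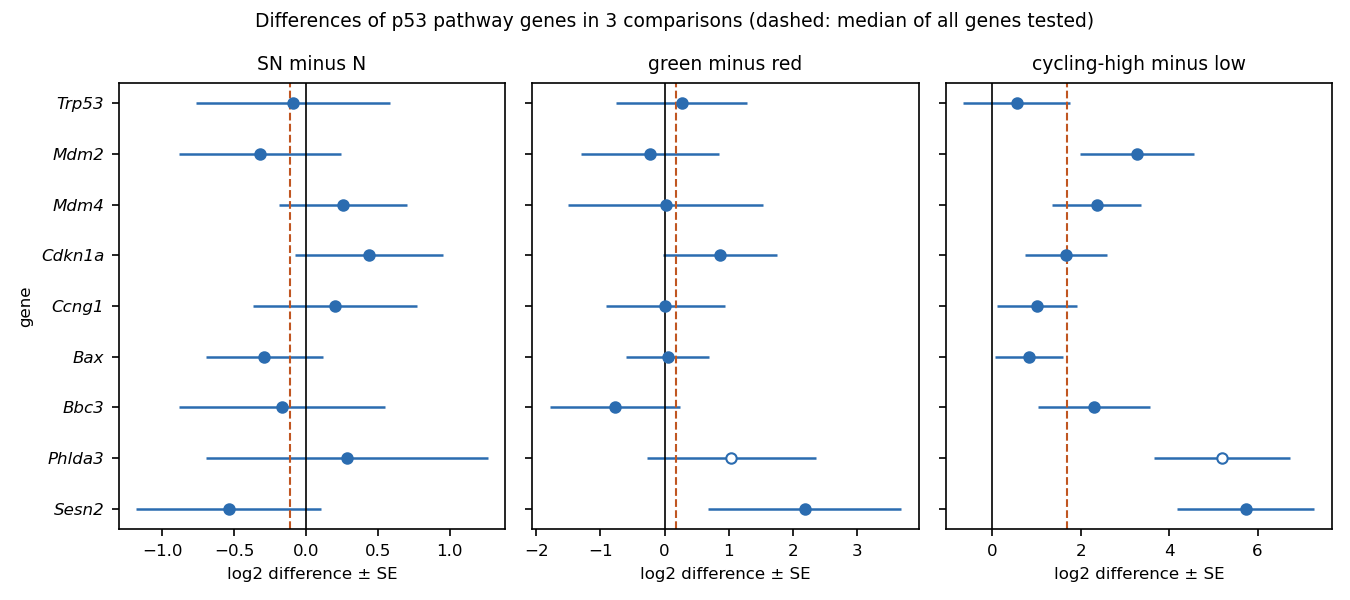
Log2 difference ± SE of each gene in the 3 comparisons, each panel with its own horizontal scale. Open circles mark Phlda3 where only the fit without the filter on low counts gave a value. The dashed line is the median of all genes tested with the filter (−0.11, 0.18 and 1.69), and members lie on both sides of it in each panel. In the fits without the filter, which gave the open circles, that median was 0.125 for colour and 0.596 for cycling state.

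The wider pathway was followed with 6 further lists. Between SN and N clones 40.2% of all genes tested lay above 0. None of the 14 regulators tested passed the threshold, 10 above 0 and 4 below, with Crebbp, a p53 acetyltransferase, lowest in p at −0.66 ± 0.29 (unadjusted p = 0.0249 with edgeR). Of the arrest and repair targets 6 lay above 0 and 5 below, of the apoptosis targets 5 and 5, and of the metabolism and growth targets 4 and 2. BCL2 family and caspase genes were split 5 to 7 and the other CDK inhibitors 3 to 2. Among the latter Cdkn1c, which encodes p57, had a median of 5.00 CPM in SN clones against 40.2 CPM in N, a difference of −1.49 ± 0.71 (unadjusted p = 0.0401). Plk2 (0.70 ± 0.51), Hrk (−0.68 ± 0.46) and Sesn3 (0.58 ± 0.55) had the smallest p-values of their lists, and adjusted p was 1 for all of these with edgeR. With limma-voom, which called 1.44% of all genes higher in N, Crebbp (−0.93 ± 0.21, adjusted p = 0.0149) and Cdkn1c (−3.48 ± 0.69, adjusted p = 0.00437) were called.

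Between green and red cells none of the 37 genes of these lists that were tested passed. Sesn1, the p53 target related to Sesn2, had the smallest p-value, with a median of 10.0 CPM in green and 0 CPM in red and a difference of 2.19 ± 1.25 (unadjusted p = 0.0838, adjusted p = 1 with edgeR). Siva1 (1.37 ± 1.15) and Kat5 (−1.18 ± 1.12) had the smallest p-values of their own lists.

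Between cycling states 37 of the 39 genes tested in these lists lay above 0, as did most genes, and none was called. Of the regulators all 11 tested did, led by Usp7 (2.35 ± 1.11) and Ep300 (1.38 ± 0.71). Btg2, an antiproliferative target, had a median of 63.9 CPM in cycling-high and 1.75 CPM in cycling-low sums, a difference of 3.95 ± 1.37 (adjusted p = 0.0678 with edgeR). Trp53inp1, an apoptosis and autophagy target, differed by 3.76 ± 1.33 (adjusted p = 0.0724 with edgeR). Sesn3 differed by 2.38 ± 0.87 (adjusted p = 0.0780) and Sesn1 by 3.45 ± 1.53 (adjusted p = 0.130, both with edgeR). The median was 1.69 over all genes and 2.46 over the 4 genes tested of their list, from which these 2 were named for their p-values. Bok (3.91 ± 1.49), Bcl2l2 (3.26 ± 1.27) and Apaf1 (3.01 ± 1.48), genes of the mitochondrial apoptosis machinery, did not pass either. These calls depended on the setting, as did the share of all genes outside the score called higher in cycling-high. That share was 11.7% with RLE factors, 6.54% with limma-voom, and 17.0% and 3.34% with cells of at least 500 and 2000 genes. It was 12.8% with cells of at least 1000000 counts, 41.6% with the top 33.3% and 68.6% with the top 50% of the score. Btg2, Trp53inp1 and Sesn3 passed with RLE factors (adjusted p = 0.0360, 0.0415 and 0.0345 with edgeR) and with cells of at least 500 genes (adjusted p = 0.0264, 0.0290 and 0.0319). Bok and Bcl2l2 passed with cells of at least 500 genes (adjusted p = 0.0396 and 0.0449 with edgeR) and with cells of at least 1000000 counts (adjusted p = 0.0485 and 0.0368). Trp53inp1 also passed with limma-voom (adjusted p = 0.0346), with cells of at least 2000 genes (adjusted p = 0.0475 with edgeR) and with cells of at least 1000000 counts (adjusted p = 0.0463 with edgeR). With the top 33.3% and the top 50% of the score all of these genes passed, as did Sesn1 (adjusted p = 0.0308 and 0.000187 with edgeR) and Apaf1 (adjusted p = 0.0172 and 0.00232 with edgeR). Cdkn1b, which encodes p27, differed by 1.11 ± 0.91 and Cdkn2d by 2.36 ± 1.43.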

How the data were processed

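Smart-seq3 libraries of 287 single cells were represented by raw exon counts and raw intron counts per gene, as deposited by the authors, whose files name no scaling. The tools in the submitters' processing notes are STAR 2.7.9a and R 4.4.0, with GRCm39 as the build. The counting tool, annotation, strand setting and use of molecular identifiers are not given in the sources used here, so counts are read as reads. The reference at hand has another build, so it gave names, exon lengths and overlaps, and promoter sequences are credited to its own build. The members and lists were chosen with earlier results of these data known.

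Of 284 cells with a clone label, the 247 in which 1000 or more genes had an exon count were kept (131 SN, 116 N; 153 green, 94 red). Total exon counts ran from 6171 to 13040432 per kept cell, and shares of cells carry 95% Wilson intervals. Counts were summed per clone (at least 2 kept cells), per clone and colour, or per clone and cycling class. edgeR 4.0.16 (R 4.3.3) scaled the sums by TMM, filtered them with filterByExpr and gave the quasi-likelihood F tests, with Benjamini-Hochberg adjustment over all genes tested and a threshold of 0.05. The SN to N fit had plate as a term, and the other 2 fits had the clone as a block, since cells of a clone share its founder. In these the dispersion trend was estimated from every 10th gene by abundance and interpolated. Each SE was taken as |log2 value| / sqrt(F). Clone 45, labelled on 2 plates, was placed on plate 3. The tests were tried on simulated data. Alternatives were RLE factors, DESeq2 1.42.0, limma-voom 3.58.1, other filters, depths, plates, clones and classes. Genes of 6 further lists were named if called, otherwise the 2 of smallest p per list. The 3 cells that have no clone label were left out of all comparisons.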

Additional observations from a re-analysis of the deposited data

Results flagged for a closer look

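Of the 3 cells that carry no clone label, which no comparison used, 2 held members of the pathway above the 3 counts that a count of 0 allows. In the first, with 1689914 exon counts in all, Bax stood at 669 CPM and Bbc3 at 154.4 CPM. In the second, with 5976683 exon counts, Trp53 stood at 44.7 CPM, Cdkn1a at 116.3, Mdm2 at 102.9, Mdm4 at 41.3, Bax at 133.4, Bbc3 at 1.67 and Phlda3 at 1.51 CPM. The third had 2257 exon counts in all and none of the 9 genes.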

How the results depend on the processing

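Between SN and N clones no member passed the threshold under any alternative run, and 34 values of members (20.1%) changed sign. The median of all genes tested moved from −0.11 to 0.0005 with RLE factors and to −0.60 with limma-voom. Of the genes tested, the share called was 0.0168% in N with DESeq2, 0.00839% in SN and 1.44% in N with limma-voom, 0.0169% in N with cells of at least 2000 genes, and 5.16% in SN and 12.3% in N without the filter on low counts. The cause was not tested. Crebbp and Cdkn1c passed with limma-voom. The values that changed sign follow, as log2 differences, SN minus N. With DESeq2 it was 0.10 for Trp53. With limma-voom they were −0.36 for Cdkn1a, −0.13 for Mdm4, −0.81 for Ccng1, −0.50 for Gtse1, −0.32 for Bid, −0.13 for Sesn3 and −0.62 for Cdkn2d. With cells of at least 500 genes they were 0.013 for Trp53 and 0.087 for Bbc3. With intron counts added they were 0.18 for Trp53 and 0.19 for Bbc3. With each cell weighing equally they were −0.037 for Cdkn1a, 0.18 for Mdm2, 0.041 for Bax, 0.29 for Bbc3, −0.22 for Ccng1 and −0.075 for Gtse1. On plate 1 they were 1.01 for Trp53, 0.11 for Trp53bp1 and −0.44 for Cdkn2d. On plate 2 they were 0.51 for Mdm2, 1.61 for Bbc3, −0.71 for Ccng1, −0.78 for Phlda3 and −0.18 for Bid. On plate 3 they were 0.85 for Trp53, −0.18 for Mdm4, 0.072 for Bax, 0.073 for Bbc3, −0.20 for Plk2 and 0.78 for Ddit4. With thinned cells they were 0.28 for Trp53, −0.10 for Mdm4 and 0.0050 for Bax. With clones of 1 kept cell they were 0.0015 for Trp53 and 0.029 for Bbc3. Without the plate term they were 0.36 for Trp53 and 0.20 for Bbc3. In clones of size 4 to 6 they were −0.22 for Cdkn1a, −0.14 for Mdm4 and 0.15 for Ddit4. Without clone 45 it was 0.027 for Bbc3. With cells of at least 1000000 exon counts they were 0.10 for Trp53 and 0.058 for Bbc3. No paired analysis was possible because the cell numbers of different clones name cells only.

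Between colours no member passed under any alternative run either, and 36 values of members (28.1%) changed sign. The share of genes called was 0.0134% in red with RLE factors, 0.00264% in green without the filter and 0.0152% in green on plate 3, 1 gene each. The values that changed sign follow, green minus red. With RLE factors they were −0.17 for Mdm4 and −0.13 for Ccng1. With limma-voom they were −0.18 for Trp53, −0.15 for Bax and −0.038 for Ccng1. Without the filter on low counts it was −0.0038 for Mdm4. With cells of at least 500 genes they were −0.20 for Mdm4 and −0.10 for Ccng1. With cells of at least 2000 genes it was −0.10 for Ccng1. Without 3 abundant RNAs they were −0.018 for Mdm4 and −0.018 for Ccng1. With intron counts added it was −0.14 for Ccng1. With each cell weighing equally they were −0.26 for Trp53, −0.0021 for Ccng1 and −0.0075 for Cdkn1b. On plate 1 they were −0.23 for Trp53, 0.055 for Mdm2, −0.97 for Mdm4, −0.054 for Bax, 0.25 for Rps27l, −0.88 for Ei24 and −0.12 for Xiap. On plate 2 they were −1.36 for Cdkn1a, −0.13 for Bax, −0.65 for Plk2, −0.47 for Siva1, −0.70 for Ei24, −1.70 for Cdkn2d and −0.28 for Cdkn1b. On plate 3 they were 1.64 for Mdm2, −0.68 for Ccng1, −2.85 for Prkab1, 0.064 for Hrk and −0.94 for Cdkn2d. Without clone 16 they were −0.088 for Mdm4 and −0.044 for Ccng1. With thinned cells they were −0.064 for Bax and −0.0050 for Ei24. With no replicate block they were −0.10 for Trp53, −0.29 for Ccng1, 0.093 for Rps27l, −0.13 for Ei24 and −0.0055 for Prkab1. In SN clones it was 0.040 for Mdm2. In N clones they were −0.75 for Cdkn1a, −0.75 for Mdm4, −0.55 for Bax, −1.03 for Ccng1, −0.26 for Cop1, −1.75 for Plk2, −0.13 for Siva1, −0.43 for Sesn1, −0.53 for Xiap, −1.18 for Cdkn2d and −0.47 for Cdkn1b. With cells of at least 1000000 exon counts they were −0.69 for Trp53, −0.77 for Mdm4, −0.86 for Bax, −0.77 for Ccng1 and −0.18 for Cdkn1b.

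Between cycling states the call of Sesn2 held in 10 of the 16 alternatives that tested it, leaving out clone 16 aside. It was lost without the clone block, with limma-voom, with intron counts, in N clones (3.38) and on plates 2 (4.04) and 3 (4.30). With thinned cells, in SN clones and on plate 1 Sesn2 did not pass the filter on low counts, so it was not tested there. Other genes gained calls: 17 values of members and 47 of genes in the further lists passed the threshold under some alternative, among them the 7 other members with each cell weighing equally. With no replicate block, that is without pairing the classes by clone, 0 genes were called in either direction, Sesn2 was 1.70 and the median of all genes 0.21. The share of genes called higher in cycling-high was 11.7% with RLE factors, 17.0% and 3.34% with cells of at least 500 and 2000 genes, 0.847% with introns, 89.8% with each cell weighing equally and 12.8% with cells of at least 1000000 counts. It was 41.6% with the top 33.3% and 68.6% with the top 50% of the score, and 0 with thinned cells, in SN clones, in N clones and on plates 1, 2 and 3. The share called higher in cycling-low was 0.507% with limma-voom, 0.0911% with each cell weighing equally, 0.0892% with the top 33.3%, 0.0143% with the top 50%, 0.0767% and 0.0129% with cells of at least 2000 and 500 genes, 0.0655% with cells of at least 1000000 counts, 0.0519% without 3 abundant RNAs, 0.0134% on plate 2 and 0.00273% without the filter. It was 0 with RLE factors, with Mki67 and Top2a at 10 CPM, with thinned cells, in SN clones, in N clones and on plates 1 and 3. The values that changed sign follow. With cells of at least 2000 genes it was −0.083 for Trp53. On plate 2 they were −0.24 for Bax and −0.79 for Bbc3. On plate 3 it was −0.87 for Trp53. With no replicate block they were −0.029 for Trp53 and −0.10 for Cdkn2d. In SN clones it was −0.019 for Trp53. DESeq2 was not run on the clone-blocked comparisons. Leaving out clone 16 changed nothing here, as it did not have cells of both classes. The alternatives with cells of at least 1000000 counts and with SN or N clones in the cycling comparison were chosen after seeing the data.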
